A study of Rattus norvegicus with 30 samples.

Results

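The genes described here carry out mitosis and chromosome segregation: 44 rat genes that code for cyclin-dependent kinase 1 and its partners, mitotic kinases, the spindle checkpoint, the kinetochore, spindle motors and the cytokinesis machinery. They were chosen by symbol, and every array probe whose transcript accession maps to one of those symbols was taken. Of the 44 genes, 36 had a probe, and those 36 had 44 probes, 28 genes with 1 probe and 8 with 2. All values come from a rat array whose 30367 probes gave 26912 genes or unnamed transcripts, so the members are 36 of 26912. Kif4a, Bub1b, Cenpe, Top2a, Spc24, Anln, Ect2 and Melk had no matching probe and were not analysed here. Where a gene had 2 probes, the brighter over the 16 rat arrays was used.

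RNA was from livers of male animals fed a diet with 0 ppm (control) or 1000 ppm phenobarbital (PB) for 7 days. Phenobarbital is a barbiturate that activates the constitutive androstane receptor (CAR) in liver. The 3 models were Crl:CD(SD) rats (here SD, an outbred Sprague-Dawley stock), rats labelled CAR KO, which lack the receptor, and chimeric mice with rat hepatocytes. Each SD and each CAR KO group had 4 animals and each chimeric group had 7, giving 30 arrays with 1 animal each. The chimeric livers kept the host's own non-hepatocyte cells and any remaining mouse hepatocytes, and how far mouse RNA reached the rat probes was not tested. The labels give no age for the animals and do not name the deleted part of the CAR gene.

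Entry into mitosis is driven by Cdk1 bound to cyclins A2 and B, and transcription of these genes is raised late in the cell cycle by Foxm1 and the MuvB complex. Kinetochores then tie chromosomes to spindle microtubules, the checkpoint holds the anaphase-promoting complex until all are attached, and kinesins and the centralspindlin complex part the chromosomes and divide the cell. Hepatocytes of an adult liver rarely divide, so transcripts of these genes are usually scarce there, and phenobarbital is known to raise hepatocyte replication in rodents for a short time after dosing starts.

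Late cell cycle promoters are known for 2 elements, the cell cycle genes homology region (CHR, TTTGAA) and the CCAAT box. The 300-base RefSeq promoter windows of the members (GRCr8, 250 bases before to 50 after the start) were searched for both, on both strands. The members were chosen by symbol and some have no probe, so the search does not bear on the array values. Windows were matched for 37 of the 44 members, 38 windows in all as Kif2c had 2. TTTGAA was present in 23 of the 38 (60.5%), against 18.3% of all 33469 rat windows of the same length. CCAAT was present in 28 of 38 (73.7%), against 37.5% of all, and 20 of the 38 held at least 2 copies (52.6% against 11.2%). A variant CHR, TTCGAA, was in 3 member windows (7.89% against 1.69%). Letters of E2F-type sites were less frequent, with TTCCCGC in 2 windows (5.26% against 4.21%) and TTGGCGC in 3 (7.89% against 2.26%). TTTGAA and TTCGAA differ in 1 letter, and overlaps between motifs were not removed. A match describes letters only.

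Shown are the 150 bases before the start of Kif11 and of the 4 members with the largest called log2 difference in a PB response. Kif11 and Racgap1 were both called in SD and in chimeric livers, and Racgap1 had no matched window. Among those shown, 3 hold TTTGAA there and 2 do not. TTTGAA or its reverse complement TTCAAA, and CCAAT or its reverse complement ATTGG, are in capitals.
Cdk1 (chr20:19265143-19265292, plus strand): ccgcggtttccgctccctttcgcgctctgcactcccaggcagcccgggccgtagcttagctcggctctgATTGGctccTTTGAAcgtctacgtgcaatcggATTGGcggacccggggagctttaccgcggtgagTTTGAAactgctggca
Kif22 (chr1:191080879-191081028, minus strand): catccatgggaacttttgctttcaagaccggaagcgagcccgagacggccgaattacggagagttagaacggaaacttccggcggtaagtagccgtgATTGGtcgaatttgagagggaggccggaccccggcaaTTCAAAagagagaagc
Spc25 (chr3:74396719-74396868, minus strand): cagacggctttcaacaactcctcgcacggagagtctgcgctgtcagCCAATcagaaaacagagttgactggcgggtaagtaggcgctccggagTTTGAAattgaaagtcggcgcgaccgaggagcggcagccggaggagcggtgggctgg
Cdca3 (chr4:159321053-159321202, plus strand): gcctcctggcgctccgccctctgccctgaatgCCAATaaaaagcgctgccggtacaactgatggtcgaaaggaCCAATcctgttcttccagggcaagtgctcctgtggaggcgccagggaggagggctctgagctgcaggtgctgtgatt
Kif11 (chr1:244536717-244536866, plus strand): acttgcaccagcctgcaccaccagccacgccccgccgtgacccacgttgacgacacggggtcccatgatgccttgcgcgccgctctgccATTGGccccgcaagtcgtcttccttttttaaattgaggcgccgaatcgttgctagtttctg
Within these 150 bases Cdk1 has 2 copies of TTTGAA and 2 of CCAAT, Kif22 and Spc25 have 1 of each, Cdca3 has 2 CCAAT and Kif11 has 1 CCAAT.

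Values are log2 of the background-corrected and detrended spot signal minus the array's 75th percentile, so 0 is that percentile and most members are below it. The 75th percentile signal averaged 256 to 280 units in the chimeric groups and 437 to 506 in the rat groups, and 50.8% to 67.0% of the probes on an array were well above background. Genes entered a test if at least 75% of the arrays of a group compared had the probe well above background, and a gene was called where its Benjamini-Hochberg adjusted p from limma was under 0.05. The SD arrays were all on 1 slide and the CAR KO arrays on another, each with the control diet in row 1 and PB in row 2, so diet and slide row cannot be told apart, nor can CAR KO and slide. In chimeric mice, 1 slide held all 7 control arrays and 1 PB array, and another held the other 6 PB arrays. Cyp2b2, the classic CAR target, averaged 2.95 in SD controls and 6.98 with PB, but 2.87 and 2.78 in the CAR KO groups. Nr1i3, the gene of CAR itself, had transcript signal in the CAR KO livers (1.12 ± 0.30 against 1.17 ± 0.49 in SD rats, mean and standard deviation of 4 control animals each), and whether its probes lie in the deleted part is not known, so they do not check the label.

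Detection of the members varied by group. Of the 36 probes used, 9 were well above background on all 30 arrays (Aurka, Birc5, Bub1, Cdc20, Cdc25b, Cdk1, Foxm1, Mad2l1 and Plk1), 16 on all 16 rat arrays, 26 on 1 to 29 arrays, and 1, the kinase gene Pbk, on none. On at least 75% of the arrays of a group, 23 members were above background in SD controls (63.9% of those with a probe, against 62.9% of all genes) and 26 with PB (72.2% against 57.9%). The same count was 27 in CAR KO controls (75% against 65%) and 17 with PB (47.2% against 60.9%). In chimeric livers it was 10 with the control diet and 19 with PB, a share of 27.8% and 52.8% of the members with a probe, while the share of all genes was 51.9% and 50.3%. These counts move with the filter that decides which genes are tested, so they describe detection and support no comparison. Aurkb, Nek2, Cdca8, Cenpa, Cenpf, Hmmr and Kif2c were dim on most arrays and were tested in no comparison.

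**Figure D1:**
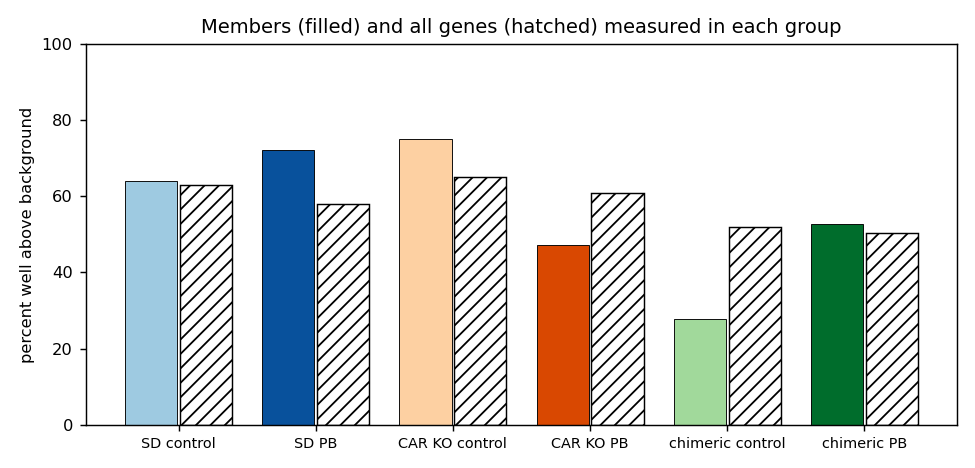
Percent of members with a probe (filled bars, 36 genes) and of all 26912 genes (hatched bars) that were well above background on at least 75% of the arrays of each group. The filled bar is 27.8% in chimeric controls and 52.8% in chimeric PB livers, while the hatched bars there are 51.9% and 50.3%.

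In SD rats on PB, 2 of the 28 members tested rose, the spindle motor gene Kif11 and the cytokinesis gene Racgap1, both about doubled on the scale used here, and none fell. That is 7.14% of the members, against 4.3% of all 17009 genes called, 2.5% higher and 1.8% lower. Many more members pointed up without passing the test: 25 of 28 had a positive log2 difference, the median was 0.68 (all genes -0.02), and 15 had an unadjusted p under 0.05 (53.6% against 20.1% of all genes). In 7 members the lowest PB array was above the highest control array (5.9% of all genes did the same), and in none was the reverse true (5.76%). Of the 28 members, 23 passed the filter in controls and 26 with PB, so some entered through the PB group alone. These counts are thus partly set by the filter, and members that move together are not separate support. Both calls were kept when any 1 of the 8 animals was left out and after normexp background correction, which moved the log2 differences to 0.32 (Kif11) and 0.29 (Racgap1). In bulk liver RNA, more dividing cells and more RNA per dividing cell cannot be told apart.

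Kif11 (Eg5), the motor that pushes the spindle poles apart, measured -4.55, -5.12, -4.90 and -4.90 on the 4 SD control arrays. With PB it measured -3.73, -3.87, -3.60 and -4.15. All 4 PB arrays were above all 4 controls, a log2 difference of 1.03 ± 0.19 (SE; 2.04-fold, limma adjusted p = 0.00673). Racgap1, the GTPase-activating subunit of centralspindlin, measured -5.09, -5.36, -5.12 and -5.29 in controls and -3.95, -4.29, -3.83 and -4.37 with PB. Its groups did not overlap either, with a difference of 1.10 ± 0.21 (2.15-fold, limma adjusted p = 0.00883). Racgap1 was well above background on 3 of the 4 control arrays and Kif11 on 3 of 4.

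The 6 mitotic entry genes had differences from -0.51 to 1.24, none called. Cdk1, the kinase that starts mitosis, measured -1.49, -2.78, -2.19 and -2.95 in SD controls and -0.67, -0.98, -1.65 and -1.15 with PB. SD control 1 lay above PB 3, and the difference of 1.24 ± 0.45 was not called (limma adjusted p = 0.141). Ccna2, cyclin A2, had a difference of 1.20 ± 0.39 with groups that did not overlap (limma adjusted p = 0.0975). For Ccnb1 and Ccnb2, the B cyclins, the differences were 0.74 ± 0.46 and 0.50 ± 0.41. Foxm1, which transcribes many of these genes, differed by 0.16 ± 0.12, and Cdc25b, a phosphatase that activates Cdk1, by -0.51 ± 0.28, the lowest of the 28.

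At the kinetochore, the attachment site on the chromosome, Spc25 of the NDC80 complex had the largest difference of all members. It measured -3.0, -5.15, -3.97 and -4.99 in SD controls and -2.25, -2.47, -2.18 and -2.90 with PB. The groups did not overlap, but the controls spanned over 2 log2 units and the difference of 1.83 ± 0.61 was not called (3.55-fold, limma adjusted p = 0.109). Nuf2 of the same complex was not well above background on any control array and was so on 3 of 4 PB arrays. Its fitted difference of 1.58 ± 0.55 was not called (2.98-fold, limma adjusted p = 0.122). That fold is an estimate that rests on dim control values, not a lower limit. Ndc80 differed by 0.99 ± 0.41, and Birc5 (survivin), of the chromosomal passenger complex, by 0.19 ± 0.17.

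Among spindle genes, Stmn1, which takes microtubules apart, measured -3.23, -3.05, -3.08 and -3.05 in SD controls and -2.24, -2.50, -2.30 and -2.56 with PB. Its groups were well apart and tight, and the difference of 0.70 ± 0.19 was just short of the threshold (1.63-fold, limma adjusted p = 0.0542), passing it (0.0148) when only the 2 SD groups entered the fit. Prc1, which bundles the central spindle, differed by 1.11 ± 0.37, Kif20a (a motor that carries the passenger complex to the midzone) by 0.96 ± 0.38, Kif22 (a motor on chromosome arms) by 0.77 ± 0.34 and Nusap1 (a spindle bundler) by 0.66 ± 0.29. Dlgap5, a spindle assembly factor, differed by 0.39 ± 0.22. Kif23, the partner of Racgap1, and Tpx2, an activator of Aurora A, differed by -0.14 ± 0.24 and -0.09 ± 0.34.

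Cdca3, an adaptor for breakdown of the mitosis inhibitor Wee1, measured -2.26, -3.68, -3.28 and -4.51 in SD controls and -1.37, -1.75, -2.53 and -2.17 with PB. Control 1 again lay among the PB arrays, and the difference of 1.48 ± 0.55 was not called. The kinases Plk1, Aurka and Ttk differed by 0.63 ± 0.28, 0.36 ± 0.16 and 0.47 ± 0.37. Among checkpoint genes the difference was 0.48 ± 0.23 for the kinase gene Bub1, 0.26 ± 0.12 for Cdc20 (activator of the anaphase-promoting complex) and 0.14 ± 0.11 for Mad2l1 (MAD2, the Cdc20 inhibitor). Ube2c, the complex's ubiquitin-conjugating enzyme, differed by 0.91 ± 0.46.

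**Figure D2:**
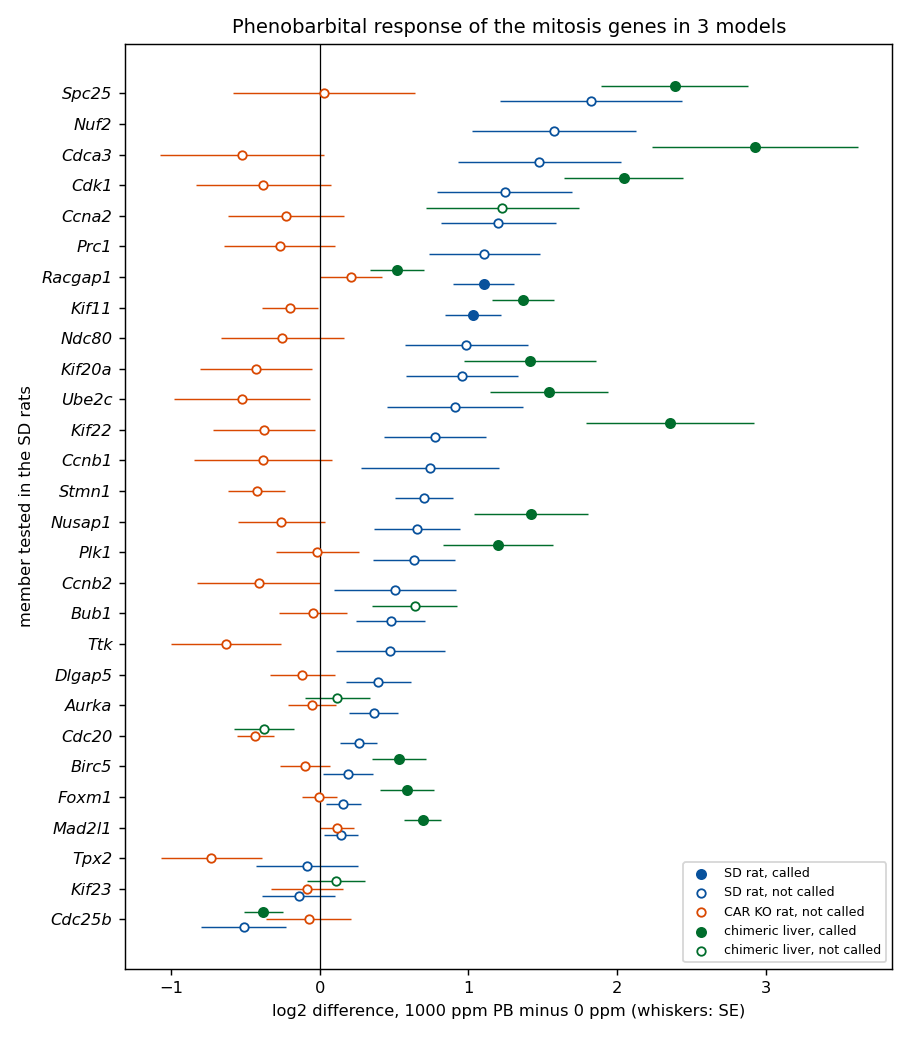
Log2 difference between 1000 ppm and 0 ppm PB, with its standard error, for the 28 members tested in SD rats (blue), and for those also tested in CAR KO rats (orange) and chimeric livers (green). Filled points passed an adjusted p of 0.05. Blue points lie right of 0 for 25 of 28 members and orange points left of 0 for 24 of 27, counts that the filter partly sets.

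In CAR KO rats on PB, none of the 27 members tested was called by limma (2 had an unadjusted p under 0.05), where 0.205% of all 17551 genes were called, 0.0513% higher and 0.154% lower. The log2 difference was negative in 24 of 27, from -0.73 for Tpx2 to 0.21 for Racgap1, with a median of -0.25 (all genes -0.02). All 27 passed the filter in the controls and only 17 did with PB, so the count of members lower is partly set by the filter. The direction rests on 1 animal: without CAR KO control 2 the median was 0.02, and without CAR KO PB 4 it was -0.53. Those 2 livers stood above the SD control mean in 14 and 13 of 16 members. Cdk1 measured -2.72, -1.17, -2.44 and -2.85 in the 4 CAR KO controls and -3.13, -3.29, -2.85 and -1.43 with PB, so 1 array of each group lay more than 1 log2 unit above the rest. Cdc20 had the smallest p, with -1.50, -1.33, -1.60 and -1.53 in controls and -1.91, -2.29, -1.85 and -1.64 with PB. All 4 of its PB arrays were below all 4 controls (7.1% of all genes were so, and 3.71% the other way round), and the difference of -0.44 ± 0.12 was not called (limma adjusted p = 0.121).

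The pair called in SD rats, Kif11 and Racgap1, was not called in CAR KO rats. Kif11 measured -5.25, -4.61, -5.39 and -4.91 in CAR KO controls and -5.43, -5.31, -5.39 and -4.83 with PB, a difference of -0.20 ± 0.19 (limma adjusted p = 0.633). Racgap1 measured -5.63, -4.67, -5.49 and -5.78 in controls and -5.12, -5.29, -5.44 and -4.87 with PB, a difference of 0.21 ± 0.21 (limma adjusted p = 0.658). In both genes the groups overlapped, and control 2 was the highest of the 8 arrays.

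The difference between the CAR KO and the SD response was tested as an interaction. It was negative in 26 of 28 members, with a median of -1.01 (all genes -0.01), and limma called none of them, where 0.533% of all 17812 genes were called. An unadjusted p under 0.05 was found for 13 members (46.4% against 13.2% of all genes). A member entered by passing the filter in any of the 4 groups, and a high value in SD PB or CAR KO control makes this difference negative. These counts and the median are thus partly set by the filter, and they include Nuf2. Kif11 came closest at -1.23 ± 0.26 (limma adjusted p = 0.0559), followed by Stmn1 at -1.13 ± 0.27 (0.094), Cdc20 at -0.70 ± 0.18 (0.113) and Racgap1 at -0.89 ± 0.29 (0.213). Some larger values had wide errors: -2.0 ± 0.78 for Cdca3, -1.80 ± 0.87 for Spc25 and -1.62 ± 0.64 for Cdk1. Nuf2 was well above background on 0 of 4 SD controls, 2 of 4 CAR KO controls and 1 of 4 CAR KO PB arrays, so its difference of responses is not given. Without CAR KO PB 4, Kif11 (-1.37, limma adjusted p = 0.0309) and Stmn1 (-1.29, 0.0387) were called, and Kif11 was also called without CAR KO control 3 (0.0418) or SD PB 4 (0.0404). Mad2l1 (-0.03 ± 0.16), Kif23 (0.06 ± 0.35) and Foxm1 (-0.16 ± 0.17) had the values nearest 0. By comparison, the same test called Cyp2b2 at -4.12 ± 0.20 (limma adjusted p = 9.07e-08).

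**Figure D3:**
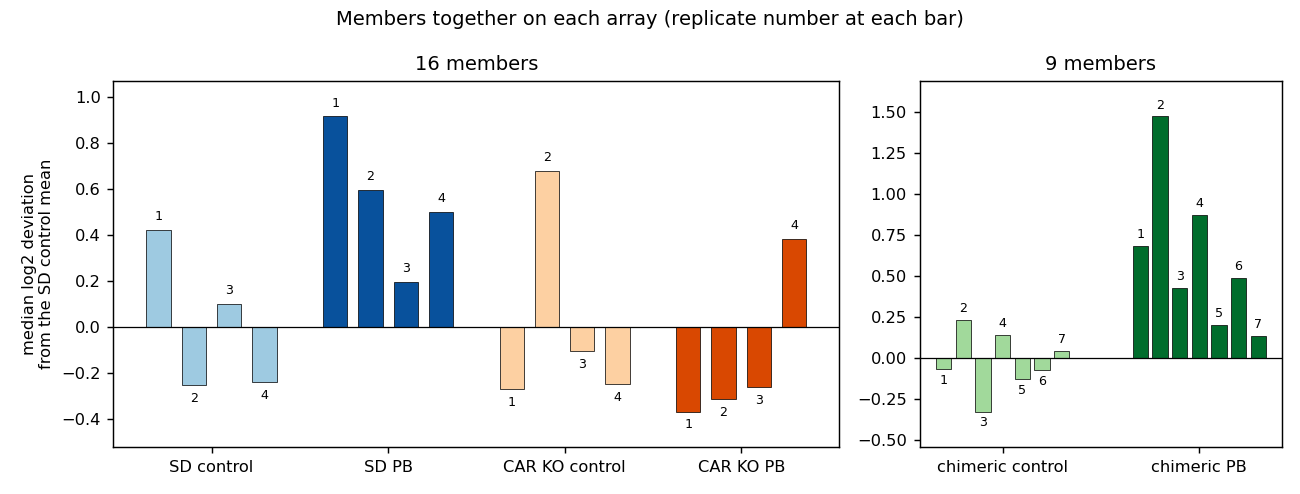
Median over members of the log2 value minus the SD control mean, 1 bar per array with its replicate number, for 16 members measured on all rat arrays (left) and, for the chimeric arrays, 9 measured on all 30 arrays (right). CAR KO control 2 (0.68) and CAR KO PB 4 (0.38) stand above the other arrays of their groups, and chimeric PB 2 (1.47) is the highest of the chimeric arrays.

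In chimeric livers on PB, 14 of the 19 members tested were called, 13 higher and 1, Cdc25b, lower. The background was high, with 42.7% of all 14445 genes called, 19.3% higher and 23.4% lower. With arrays centred on their median, 5397 genes were called higher and 2226 lower, against 2794 and 3374 with the 75th percentile. The members' median log2 difference was 1.20 (all genes 0.06), with values from -0.38 to 2.93. A gene entered the test if it was measured on at least 75% of the arrays of either group. Of the 19, 9 passed through the PB group alone, so the count of members higher is partly set by the filter. Kif11, Kif20a, Kif22, Nusap1, Cdca3, Spc25 and Ube2c are among those 9, and their folds rest at least partly on dim control values. With slide as a block, none of the 19 was called by limma, as the test then rests on the 1 PB array that shared a slide with the controls. On that slide alone the PB arm is 1 animal, PB 1, whose differences from the mean of the 7 controls ran from 0.024 (Cdc25b) to 3.73 (Cdca3) with a median of 1.38. These are values of 1 liver, in which the members move together, and they do not separate diet from slide. After normexp, every called difference but that of Birc5 (0.41) was over 1.5 times smaller on the log2 scale, with 1.31 for Cdk1, 1.19 for Cdca3, 0.68 for Spc25, 0.63 for Kif22 and 0.38 for Kif11, and 10 members were still called.

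Among entry genes, Cdk1 ran from -3.17 over a median of -2.52 to -1.73 in the 7 chimeric controls, and from -1.99 over -0.60 to 1.43 with PB. Only the lowest PB array fell within the control range, and the difference was 2.05 ± 0.40 (4.13-fold, limma adjusted p = 0.000854). Foxm1 ran from -3.16 over -3.0 to -2.57 in controls and from -2.79 over -2.49 to -1.57 with PB, a rise of 0.59 ± 0.18 (1.5-fold, 0.0168) between groups that overlapped. It was called by the brighter of its 2 probes; with their mean it was not (limma adjusted p = 0.127), nor after normexp background correction (0.0632). Cdc25b fell, from -2.46, -2.15 and -1.81 (lowest, median, highest) to -2.82, -2.50 and -2.11, a difference of -0.38 ± 0.13 (0.77-fold, limma adjusted p = 0.0288). On the shared slide its difference was 0.024, and the call was lost with quantile scaling (limma adjusted p = 0.212), median centring (0.574) or normexp (0.148). Ccna2 differed by 1.23 ± 0.51 and was not called (0.0665).

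Spindle genes gave 4 of the 13 rises. Kif11 ran from -4.98 over -4.81 to -3.78 in controls and from -3.75 over -3.19 to -2.83 with PB. It was the single member whose chimeric groups did not overlap (4.98% of all genes did so higher and 7.68% lower), with a difference of 1.37 ± 0.21 (2.58-fold, limma adjusted p = 0.000146). On the shared slide its difference was 1.38 ± 0.42, from 1 PB animal, and was not called (limma adjusted p = 0.25). Kif22 ran from -6.60 over -5.71 to -4.02 in controls, where 1 of 7 arrays was well above background, and from -5.54 over -3.09 to -0.84 with PB, a rise of 2.36 ± 0.57 (5.13-fold, 0.00355) whose size rests mostly on dim control values. All PB arrays but PB 7 were above every control. Nusap1 went from -5.43, -4.94 and -4.11 to -4.69, -3.40 and -1.56, a rise of 1.42 ± 0.38 (2.68-fold, 0.00729). Kif20a went from -5.78, -4.65 and -4.01 to -5.26, -3.29 and -1.41, a rise of 1.41 ± 0.45 (2.67-fold, 0.0186). PB 7 was the lowest PB array in Nusap1, Kif20a and Kif22, and PB 2 the highest.

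The 2 largest differences in the main fit were those of Cdca3 and Spc25, the latter close to that of Kif22 (2.36 ± 0.57). After normexp the largest was that of Cdk1 (1.31). Cdca3 went from a lowest, median and highest value of -6.37, -3.89 and -2.29 to -3.89, -1.22 and 0.66, the largest rise at 2.93 ± 0.69 (7.60-fold, limma adjusted p = 0.00327). Spc25 went from -6.05, -4.88 and -4.57 to -5.06, -2.35 and -0.80, a rise of 2.39 ± 0.49 (5.23-fold, 0.00124). In both, PB 7 was within the control range and most other PB arrays were above it. Neither gene passed the filter in the controls, so both folds rest partly on dim control values. Ube2c was not well above background on any control array and was so on 6 of 7 PB arrays, from -5.08 over -4.17 to -1.99. That makes it at least 2.48-fold higher on the scale used here (limma adjusted p = 0.00553). After normexp its log2 difference was 0.33 (limma adjusted p = 0.0552), below that bound. Plk1 was tight in controls, from -4.06 over -3.76 to -3.63, and spread with PB from -3.99 over -2.67 to -0.66, a rise of 1.20 ± 0.37 (2.30-fold, 0.017). PB 7 again lay inside the control range.

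Mad2l1 ran from -3.52 over -3.24 to -2.90 in controls and from -2.94 over -2.57 to -2.31 with PB, a rise of 0.69 ± 0.13 (1.62-fold, limma adjusted p = 0.000507). The 2 groups overlapped by 1 array on each side. Birc5 ran from -1.32 over -0.78 to -0.31 and from -0.86 over -0.19 to 0.18, a rise of 0.53 ± 0.18 (1.45-fold, 0.0275). Racgap1 ran from -4.48 over -4.15 to -3.65 and from -4.17 over -3.60 to -2.80, a rise of 0.52 ± 0.18 (1.44-fold, 0.0305). Both overlapped widely between diets, and Racgap1 was not called after normexp background correction (0.165). Aurka (0.12 ± 0.22), Kif23 (0.11 ± 0.20), Bub1 (0.64 ± 0.29) and Cdc20 (-0.38 ± 0.20) did not pass the test.

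**Figure D4:**
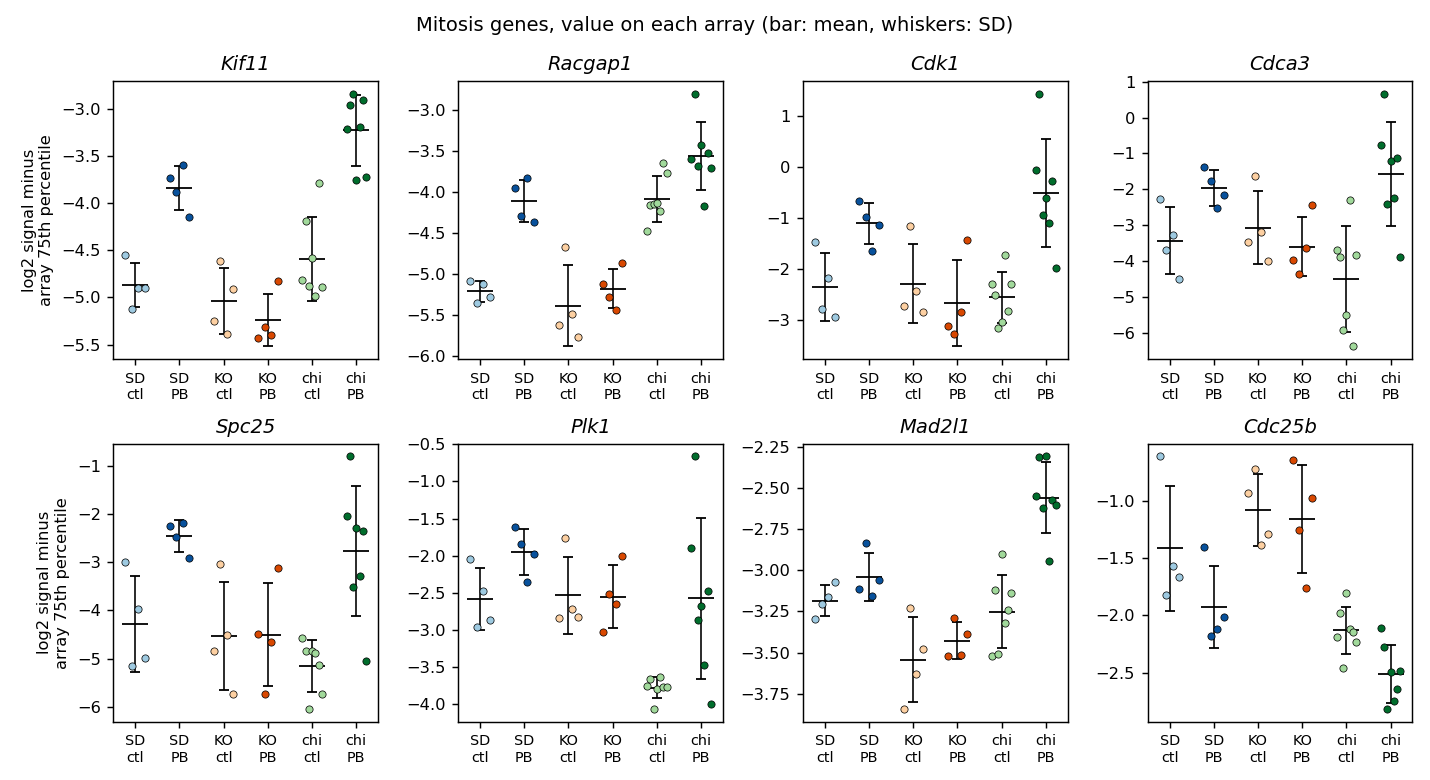
Value of 8 members on each of the 30 arrays, as log2 signal minus the array's 75th percentile, with the mean and SD of each group (ctl, 0 ppm; PB, 1000 ppm; KO, CAR KO; chi, chimeric). PB and control arrays of Kif11 did not overlap in SD and chimeric livers, where 5.9% and 4.98% of all genes were higher without overlap. In chimeric livers Kif11 passed the filter through the PB group alone. Racgap1 and Spc25 did not overlap in SD rats either. Cdk1, Cdca3, Spc25 and Plk1 spread widely between animals of a group.

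Set against the SD response in 1 fit over 30 arrays, the chimeric response was larger in 1 of 28 members, Mad2l1, by 0.55 ± 0.18 (limma adjusted p = 0.0301), where 18.9% of all 17255 genes were called, 6.29% higher and 12.6% lower. The members' median difference of responses was 0.43 (all genes 0.08). A member entered by passing the filter in any of the 4 groups. In chimeric controls 10 members passed it and with PB 19, so the median is partly set by the filter and by dim values. Mad2l1 rose by 0.69 in chimeric livers and differed by 0.14 ± 0.11 in SD rats, from -3.29, -3.21, -3.17 and -3.07 to -3.11, -2.83, -3.16 and -3.06. The call was lost without any 1 of SD control 3, SD control 4, SD PB 1, SD PB 3 or SD PB 4, with slide as a block, and after normexp. Kif22 (1.58 ± 0.77, limma adjusted p = 0.157) and Cdca3 (1.45 ± 0.996, 0.34) had larger but less certain differences, which rest partly on dim chimeric control values. Cdc20 (-0.64 ± 0.27, 0.0977) and Racgap1 (-0.58 ± 0.29, 0.168) had negative values. None of these was called. Chimeric and rat arrays were on separate slides.

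On the control diet, few differences between CAR KO and SD livers were called in these genes, and some had wide errors (Spc25, -0.25 ± 0.61). Mad2l1 was the only one of 27 tested that was called, where 34.1% of all 17724 genes were called, 14.4% higher and 19.7% lower. In no member were the groups apart (14.4% of all genes were higher and 19.9% lower without overlap). Mad2l1 measured -3.84, -3.23, -3.63 and -3.48 in CAR KO controls, lower by a log2 difference of -0.36 ± 0.11 (limma adjusted p = 0.0251). The CAR KO and SD arrays overlapped, with CAR KO control 2 inside the SD range. The call was lost without SD control 3 or 4 or CAR KO control 1 or 3, when only those 2 groups were fitted, and with all 30 arrays in 1 fit, and Foxm1 or Stmn1 was called beside it without SD control 2 or CAR KO control 2. The members' median was -0.01 (all genes -0.08). Foxm1 (-0.23 ± 0.12), Stmn1 (-0.42 ± 0.19) and Cdc20 (0.23 ± 0.12) had the next smallest p, none called.

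Chimeric and SD livers on the control diet differed in 12 of 23 members, 4 higher and 8 lower in chimeric livers, where 74.6% of all 17160 genes were called, 38.7% higher and 35.9% lower. All 23 passed the filter in SD controls and only 10 did in chimeric controls, so the count of members lower is partly set by the filter. Without overlap, 4 members were higher and 6 lower (32.6% and 28.3% of all genes). The split moved with the scaling: 7 higher and 4 lower with quantile scaling or median centring, and 11 higher and none lower after normexp. Aurka (1.18 ± 0.21), Birc5 (1.17 ± 0.19), Racgap1 (1.13 ± 0.20) and Cdc20 (0.52 ± 0.19) were higher in chimeric livers under each of the scalings run. Kif22 was lower by -2.52 ± 0.54 and Stmn1 by -2.21 ± 0.41 in the fit, sizes that rest mostly on dim values, as Kif22 was well above background on 1 of 7 chimeric control arrays. Stmn1 ran from -6.29 over -5.03 to -4.44 in chimeric controls and was well above background on 2 of 7, with no overlap with SD. Ccnb1 measured -4.13, -5.51, -4.11 and -5.39 in SD controls and was not well above background on any chimeric control array. That makes it at least 1.70-fold lower on the scale used here, but after normexp its difference was 0.21, in the other direction. Plk1, Nusap1, Tpx2, Dlgap5 and Cdc25b were also called lower, and Nusap1, Tpx2 and Dlgap5 turned positive after normexp. Slide and host species differ between these groups and cannot be told apart from the model.

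The members moved together from animal to animal within a group. Over deviations from the group means on the 16 rat arrays, the 120 pairs of the 16 members measured on all of them had a median Pearson r of 0.64, and 99.2% were above 0. The mean r of member pairs was 0.62, against 0.01 for all pairs of 14807 genes. In the chimeric arrays, 45 pairs of 10 members had a median r of 0.64 (mean 0.60, against 0.08 for all pairs of 12462 genes). Each pair shares arrays, and the values describe these livers without a test. Nusap1 (mean r with the other members 0.77), Cdk1 (0.76), Kif22 (0.75) and Kif20a (0.75) lay closest to the rest in rats, and Mad2l1 (0.28), Cdc20 (0.39) and Cdc25b (0.42) farthest. In chimeric livers, Plk1 (0.70), Bub1 (0.68) and Foxm1 (0.67) were closest.

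As a median over the 16 members, SD controls lay 0.42, -0.25, 0.10 and -0.24 from their own mean, and SD PB arrays 0.91, 0.59, 0.20 and 0.50 above it. SD control 1 was thus higher than SD PB 3. CAR KO controls lay at -0.27, 0.68, -0.10 and -0.25, with control 2 the one high liver, in which 14 of 16 members were above the SD control mean. CAR KO PB arrays lay at -0.37, -0.31, -0.26 and 0.38, with PB 4 high for 13 of 16. In the 9 members measured everywhere, chimeric controls ran from -0.33 to 0.23 and chimeric PB livers from 0.14 (PB 7) to 1.47 (PB 2).

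Other genes of the cell cycle give the setting. Of all genes tested, 2.5% were called higher and 1.8% lower in SD rats, and 19.3% and 23.4% in chimeric livers. In CAR KO rats 0.205% of all genes were called, and by the difference of responses 0.533%. A listed gene could enter through the PB group alone, so the counts of genes higher are partly set by the filter. Of 44 further mitosis genes tested in SD rats, 4 rose and none fell (median 0.11), among them Zwint of the kinetochore (0.50 ± 0.09, limma adjusted p = 0.00624), Kif18b, a spindle motor (0.92 ± 0.21, 0.0245), and Tubb4b, a tubulin (0.47 ± 0.11, 0.0272). In CAR KO rats none of 46 was called, and the difference of responses called none of 48. In chimeric livers 11 of 32 rose and 3 fell, with Zwint up by 1.45 ± 0.13 (2.42e-06) and Iqgap3, a scaffold protein, and Ccnf, cyclin F, down by -1.99 ± 0.19 and -1.85 ± 0.27. Of 44 DNA replication genes tested in SD rats, 7 rose and 1 fell (median 0.09), led by Gins1 of the replicative helicase (0.97 ± 0.11, 0.000132), Rfc2 of the clamp loader (0.76 ± 0.08, 0.000152) and Mcm3 (0.77 ± 0.11, 0.000989).

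None of the 44 replication genes was called in CAR KO rats. The difference of responses called 2 of them lower, Rfc2 (-0.78 ± 0.12, limma adjusted p = 0.00812) and Gins1 (-0.95 ± 0.15, 0.00949), while it called no member. In chimeric livers, where 19.3% of all genes were called higher and 23.4% lower, 23 of 38 replication genes rose and 3 fell (median 0.53). They were led by Tk1, thymidine kinase (1.56 ± 0.12, limma adjusted p = 7.19e-07). These counts and those of the G1 genes are partly set by the filter, as a gene could enter through the PB group alone. Of the G1 and quiescence genes, 2 rose and 1 fell of 29 in SD rats, with Gadd45b, a stress and growth response gene, up by 1.78 ± 0.20 (0.000186), and 5 rose and 4 fell of 28 in chimeric livers. With slide as a block the chimeric calls came to 1 further mitosis gene, 1 replication gene and no G1 gene.

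Markers of other liver cells were read beside the members, as summed linear signal in percent of the SD control mean. The 16 hepatocyte markers were all well above background on every array, with group medians between 83.3 and 99.7. In SD rats, the ranges for Kupffer cell and macrophage markers (14 of 16 with a probe) were 93.2 to 106 in controls and 94.8 to 110 with PB, those for T, NK and B cell markers (13 of 15) 87.5 to 110 and 77.9 to 102, and those for endothelial markers (8 of 12) 93.8 to 108 and 86.7 to 99.8. Neutrophil markers (7 of 8, with Elane, Ngp, Csf3r, Cxcr2 and Mmp8 dim in both groups) ran from 58.9 to 144 and from 46.1 to 67.9, and erythroid markers (7 of 8) from 65.9 to 164 and from 51.4 to 98.2. CAR KO control 2, in which the members stood high, had 68.6 for macrophage, 96.2 for lymphocyte and 144 for erythroid markers, the last the highest of its group. CAR KO PB 4 had 60.2, 71.6 and 128. The highest erythroid sum of its group was 152, in CAR KO PB 1, where the members' median deviation from SD controls was -0.37. SD control 1, the highest SD control in the members (0.42), had the highest erythroid (164) and neutrophil (144) sums of its group.

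In chimeric livers, as read by rat probes, macrophage, lymphocyte, neutrophil, endothelial and stellate marker sums had medians below those of SD rats. Cholangiocyte sums (7 of 9 with a probe, Krt19 dim in both groups) were higher, at 145 to 266 with the control diet and 106 to 203 with PB, against 79.0 to 138 in SD controls. That sum was carried by Spp1, which averaged 0.92 in chimeric controls and -3.18 in SD controls. Of the 7 cholangiocyte markers, 2 were called higher and 3 lower in chimeric controls, with a median log2 difference of -0.52. Epcam, for 1, averaged -2.49 against -0.63. Macrophage sums ran from 51.9 to 61.4 with the control diet and from 43.0 to 61.7 with PB, and lymphocyte sums from 39.2 to 49.9 and from 18.6 to 37.1, with Cd3e, Cd3g, Cd4, Cd8a and Ptprc not well above background on any array. Erythroid sums were 47.7 to 94.8 and 76.5 to 135, and hepatocyte sums 94.1 to 106 and 76.6 to 100. The part of these shifts in the members' values was not tested.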

How the data were processed

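Liver RNA of 30 animals was labelled with Cy3 and hybridised to 1-colour Agilent rat arrays, per the labels' protocols. Per the file headers, Feature Extraction wrote a background-subtracted, detrended intensity for each of 62976 spots (4259 controls), with flags for outliers, saturation and signal well above background. No spot was saturated. The authors' deposited series matrix holds log2 values of the same arrays, matching log2 of the scanner intensity with r = 1; it served as an alternative. The sources used here do not say how the authors tested them.

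Outlier spots were left out, spots of a probe averaged, and log2 values set relative to the 75th percentile of each array. Transcripts named 18004 of 30367 probes through RefSeq gene tables (GRCr8, names only); the other 12363 stayed unnamed. For a gene with several probes, the brightest over the rat arrays was used. Models were fitted with limma 3.58.1 in R 4.3.3 (lmFit, eBayes) over all genes that passed the filter: 16 rat arrays for the rat comparisons, 14 chimeric arrays for the chimeric response and 30 for chimeric against SD. P-values were adjusted by Benjamini-Hochberg over all genes tested. The fit was checked on simulated data. Each array is 1 animal, labelled as a biological replicate. The number of arrays limits the precision. A bound ("at least") sets the brighter group's mean against, per array, the higher of the dim probe's own value and the lowest value among probes well above background. It leaves out the spread between animals and holds only for the scaling used here. Slide numbers and positions come from the file headers.

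The members, the gene lists and the marker lists were chosen with earlier results of these data known. Values per array are given for members past the threshold in a response or a difference of responses, and for up to 3 with the largest called difference in each control-diet comparison; the rest are given by count, range and difference, and values for further members (Ccna2, Nuf2, Cdc20 and others) were picked after they were seen. For other lists, the 3 called genes with the smallest adjusted p are named at most. Alternatives were quantile scaling, median centring, normexp (offset 50, on median signals, since the files used here hold no mean signal), the series matrix, other filters and probe rules, other sets of arrays in the fit, array weights, a trended spread, replicate and slide blocks, and leaving out each animal. The fit on slide 1 alone was added after seeing the data.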

Additional observations from a re-analysis of the deposited data

Results flagged for a closer look

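Among 96 groups of values (16 members in 6 groups), 5 held 1 value far from the rest by Dixon's test at 95%, and chance alone marks about 1 group in 20. In CAR KO control 2, Nusap1 measured -2.93 (the other controls -3.96 to -3.81) and Plk1 -1.76 (others -2.84 to -2.71), and in CAR KO PB 4, Nusap1 measured -3.08 (others -4.26 to -4.07). Foxm1 measured -3.26 in SD control 2 (others -2.84 to -2.80) and Plk1 measured -4.06 in chimeric control 3 (others -3.79 to -3.63). The PB response of Mad2l1 differed between chimeric and SD livers by 0.55 on the log2 scale in the interaction test.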

How the results depend on the processing

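Of 13 alternatives on all animals, 9 kept 2 members called in SD rats, 3 gave 3 members and the filter over all arrays gave 1, as Kif11 was not tested there. In CAR KO against SD controls, 3 members were called after normexp, 2 without a filter, 0 with only the groups compared and 0 with all 30 arrays in 1 fit. In chimeric PB, 8 were called with the filter over all arrays, 0 with the slide block and 2 on slide 1 alone (1 PB animal), where Cdc25b turned to 0.024, as it did under the slide block. For chimeric minus SD, 2 were called with median centring, all probes fitted or array weights and 0 with normexp or the slide block. Normexp moved the members' median log2 difference to 0.28 (SD), -0.32 (CAR KO minus SD), 0.38 (chimeric) and 0.24 (chimeric against SD controls). The chimeric median was 0.68 without a filter and 0.59 with the filter over all arrays, and that against SD controls -0.35 with median centring and -0.25 with the filter over all arrays.

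In chimeric against SD controls, Mad2l1 turned to 0.32 (quantile), 0.34 (median centring) and 0.28 (normexp), and normexp turned Foxm1 to 0.28, Nusap1 to 0.12, Dlgap5 to 0.28, Ccnb2 to 0.41, Tpx2 to 0.37 and Ccnb1 to 0.21. The cause was not tested. Leaving out each animal gave 2 to 2 calls in SD, 0 to 0 in CAR KO, 0 to 2 for CAR KO minus SD and for CAR KO against SD controls, 12 to 17 in chimeric (17 without PB 7), 0 to 2 for chimeric minus SD and 9 to 12 for chimeric against SD controls. The medians then ran from 0.52 to 0.88, from -0.53 to 0.02, from -1.26 to -0.73, from -0.23 to 0.18, from 0.87 to 1.36, from 0.24 to 0.54 and from -0.85 to -0.32, in the same order.

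Counts over all genes moved more. SD calls went from 732 to 3523 without a filter, 186 with only the groups compared and 200 with all 30 arrays. CAR KO calls went from 36 to 1712, 0 and 23 in the same settings, 21 with the filter over all arrays and 325 with array weights. With all 30 arrays, calls went from 95 to 39 (CAR KO minus SD) and from 6038 to 2120 (CAR KO against SD controls). Chimeric calls went from 6168 to 158 with the slide block and 95 on slide 1 alone, and chimeric minus SD calls from 3254 to 32 with the slide block and 6445 with array weights. Median centring moved the median of all genes from 0.06 to 0.35 (chimeric), from 0.08 to 0.35 (chimeric minus SD) and from 0.04 to 0.44 (chimeric against SD controls). Higher and lower calls were then 2955 and 1425 for chimeric minus SD (1085 and 2169 before), 8662 and 4033 for chimeric against SD controls (6636 and 6160), and 18 and 14 in CAR KO (9 and 27). Normexp gave 2059 and 5457 for CAR KO against SD controls (2547 and 3491). Animals of the same number did not deviate together in every pair (r from -0.26 to 0.80), though chimeric numbers 4 to 7 had r from 0.23 to 0.80, so the numbers were not taken as pairs; with the replicate block the members called were 2 in SD, 0 in CAR KO, 15 in chimeric and 11 in chimeric against SD controls. Dim signal limits most members, and normexp compresses it.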
